A study of Caenorhabditis elegans with 2 samples.

Results

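The regions described here lay just upstream of gene starts on the 5 autosomes, I to V, in ChIP-seq (sequencing of DNA bound by an immunoprecipitated protein) of UNC-30 in Caenorhabditis elegans. They were chosen by signal and position: among the 3000 regions with the highest signal in the authors' candidate list made from both replicates, those whose summit lay 1 to 500 bp upstream of the annotated 5′ end of the nearest protein-coding gene were kept. This gave 467 regions of the 30000 in that list, called the members below, at the starts of 462 genes. The other regions of the 3000 were 2033 on autosomes and 500 on the X chromosome. A further 2550 autosomal candidates lay in the same upstream span with a lower signal. They are the closest set for comparison and are called lower-signal candidates.

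All samples were whole L1 larvae, the first larval stage, of strain OP395, with genotype unc-119(tm4063) III; wgIs395, pooled from males and females of unknown age. The wgIs395 transgene added a C-terminal GFP-FLAG tag to UNC-30, so every sample carried both the unc-119 mutation and the tagged protein. The single group held 2 libraries, biological replicates 1 and 2, and the labels name no driving promoter for the transgene. No untagged strain, input or second condition was analysed here, so no difference between conditions is reported and no test was made.

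UNC-30 is a homeodomain protein of the Pitx type. It specifies the D-type motor neurons, which use GABA, the inhibitory transmitter, and it activates unc-25, the gene for the enzyme that makes GABA. Homeodomains of this type bind DNA with the core TAATCC. These neurons are a small share of the cells of a larva, and in whole larvae binding in few cells and weak binding in many cells cannot be told apart. In the compact worm genome many neighbouring genes are transcribed away from each other out of 1 shared stretch of DNA, a divergent promoter. Many worm messengers also lose their original 5′ end when a short leader is joined to them by trans-splicing, so an annotated 5′ end can be the point of joining instead of the start of transcription.

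Among the sequences that were more frequent in the members than in all sets they were compared with were 3 related 8-mers, GCGCCAGC, GCGTCAGC and GCGCAAGC, and 13 of their sites are shown here because their shared neighbouring bases can be seen when they are lined up. Each is read on the strand that carries the 8-mer, from 16 bases before it to 10 bases after it, on ce11 (the RefSeq sequence of WBcel235). Capitals mark the 8-mer, and names are the nearest genes.
eelo-2 (chrIV:17249877-17249910, + strand): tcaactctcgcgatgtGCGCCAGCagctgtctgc
fbxb-85 (chrIII:10849010-10849043, + strand): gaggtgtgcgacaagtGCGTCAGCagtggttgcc
fbxb-85 (chrIII:10849044-10849077, + strand): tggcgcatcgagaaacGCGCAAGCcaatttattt
ntl-11 (chrIV:15471658-15471691, - strand): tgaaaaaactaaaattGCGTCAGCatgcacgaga
ubxn-2 (chrIV:2725952-2725985, + strand): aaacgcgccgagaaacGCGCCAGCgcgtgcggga
ubxn-2 (chrIV:2725973-2726006, + strand): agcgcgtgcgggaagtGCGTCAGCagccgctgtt
C34C12.8 (chrIII:3460283-3460316, - strand): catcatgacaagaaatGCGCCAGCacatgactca
dnj-9 (chrII:4851812-4851845, - strand): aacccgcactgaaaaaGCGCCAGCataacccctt
ddp-1 (chrIII:1859750-1859783, - strand): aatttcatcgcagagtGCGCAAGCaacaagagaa
ddp-1 (chrIII:1859730-1859763, - strand): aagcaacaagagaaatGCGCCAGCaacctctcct
spas-1 (chrV:9175383-9175416, - strand): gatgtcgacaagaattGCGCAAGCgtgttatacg
smr-1 (chrIII:1143006-1143039, - strand): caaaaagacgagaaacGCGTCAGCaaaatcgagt
smr-1 (chrIII:1142985-1143018, - strand): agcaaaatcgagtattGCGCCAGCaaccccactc
The sites belong to the highest-signal members that could be printed, that held 1 of the 8-mers and whose stretches touched no annotated untranslated region. The sites at smr-1 were added after their values were seen, as a further pair.

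The whole stretch between the annotated starts of both genes is shown for 4 divergent promoters that held a pair of these 8-mers. Each is printed from the start of the gene named last to the start of the gene named first. Capitals mark any of the 3 8-mers and GACGCA, a 6-mer that an earlier look at these data had listed, on either strand. Where 2 marked words share bases they run together, as in TGCGTCAGC, where the other-strand reading of GACGCA runs into GCGTCAGC.
fbxb-85 and hex-3 (chrIII:10848964-10849221, - strand): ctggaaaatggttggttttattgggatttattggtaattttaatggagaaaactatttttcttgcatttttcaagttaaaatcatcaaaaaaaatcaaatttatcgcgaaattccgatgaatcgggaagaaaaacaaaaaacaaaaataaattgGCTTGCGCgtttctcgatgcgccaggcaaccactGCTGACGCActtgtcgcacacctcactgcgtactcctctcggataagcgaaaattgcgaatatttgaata
dnsn-1 and C24H12.4 (chrII:410933-411221, - strand): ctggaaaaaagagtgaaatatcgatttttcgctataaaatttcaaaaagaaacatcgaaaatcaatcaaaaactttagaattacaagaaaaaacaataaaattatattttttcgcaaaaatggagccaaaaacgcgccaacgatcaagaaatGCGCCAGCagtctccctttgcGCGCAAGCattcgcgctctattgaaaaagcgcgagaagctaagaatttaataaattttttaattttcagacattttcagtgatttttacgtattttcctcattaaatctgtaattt
hpr-17 and F32A11.1 (chrII:13157048-13157328, - strand): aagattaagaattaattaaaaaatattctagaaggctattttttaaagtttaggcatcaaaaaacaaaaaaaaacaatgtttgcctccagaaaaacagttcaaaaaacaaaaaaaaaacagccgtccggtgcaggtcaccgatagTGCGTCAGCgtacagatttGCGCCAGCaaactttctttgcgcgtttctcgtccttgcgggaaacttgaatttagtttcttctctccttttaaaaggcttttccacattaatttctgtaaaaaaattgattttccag
jmjd-4 and mev-1 (chrIII:10334019-10334276, - strand): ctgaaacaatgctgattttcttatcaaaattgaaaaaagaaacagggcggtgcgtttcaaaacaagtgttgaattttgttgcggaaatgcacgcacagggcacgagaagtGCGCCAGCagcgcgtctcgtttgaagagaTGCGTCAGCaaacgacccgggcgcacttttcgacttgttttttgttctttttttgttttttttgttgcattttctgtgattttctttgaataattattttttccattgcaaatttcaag
The fbxb-85, dnsn-1 and jmjd-4 stretches open with ctg, the other-strand reading of the CAG that commonly ends a splice acceptor. The hpr-17 stretch closes with cag, directly before the annotated start of hpr-17.

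By contrast, the member with the highest signal, at cdc-48.1, held none of the 8-mers. Its 201-base window, 100 bases to each side of the summit, is printed on the strand of the gene.
cdc-48.1 (chrII:10563459-10563659, - strand): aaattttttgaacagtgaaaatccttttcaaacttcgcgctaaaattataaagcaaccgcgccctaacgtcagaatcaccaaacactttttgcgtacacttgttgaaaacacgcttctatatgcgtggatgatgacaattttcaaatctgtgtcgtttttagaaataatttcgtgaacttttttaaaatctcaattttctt
The cdc-48.1 window did not hold GACGCA either.

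Windows with TAATCC are shown for unc-25 and ttr-39, genes of the D-type neurons whose windows each hold the core 2 times. Capitals mark TAATCC, which reads GGATTA on the other strand.
unc-25 (chrIII:12942436-12942636, + strand): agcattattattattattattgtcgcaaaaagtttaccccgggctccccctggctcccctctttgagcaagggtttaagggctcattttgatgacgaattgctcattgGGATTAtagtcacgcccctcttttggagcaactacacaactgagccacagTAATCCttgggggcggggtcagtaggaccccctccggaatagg
ttr-39 (chrIV:10089901-10090101, - strand): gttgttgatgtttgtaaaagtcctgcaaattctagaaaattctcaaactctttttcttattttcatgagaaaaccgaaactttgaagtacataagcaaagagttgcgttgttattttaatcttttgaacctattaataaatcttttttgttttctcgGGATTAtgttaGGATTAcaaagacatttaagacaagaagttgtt
In both windows the cores lay on the gene's side of the summit. In unc-25 they faced opposite ways, and in ttr-39 they stood close together on 1 strand.

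The signal is a height that the authors gave each region. Its scale is not stated in the sources used here, and it is used only to order regions within a list. Members ran from 20.9 to 110 with a median of 25.6. Since this value chose the members, its level is a description. Members also carried low statistical weight in the authors' own column: the median −log10 q was 0.055, and 28 of 467 (6%) had a q under 0.05. Of the lower-signal candidates, 0 of 2550 had such a q, and their median −log10 q was 0.0485. Among the 3000, 20 of 2033 other autosomal regions (0.984%) and 16 of 500 X regions (3.2%) had such a q. The sets were parted by signal, so these shares are a description. At the lower edge of the 3000, erfa-3 (place 2979) and Y106G6E.4 (place 2999) were the last members, and icd-1 (place 3003) and the candidate at place 3004 came next, outside the 3000. All 4 had a signal of 20.9, so the boundary falls in a dense run of like values.

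Summits lay a median of 190 bp upstream of the nearest gene, with quartiles at 106 and 298 bp. The nearest to a start were those of Y54E10BR.2, at 2 bp, and ctg-2, at 3 bp, and the farthest were those of B0250.7, at 491 bp, and M01E5.4, at 492 bp. Just outside the span were Y41D4B.6 at 502 bp and sor-1 at 504 bp, and on the gene's side Y69H2.7 at 0 bp and dnj-13 at -3 bp, which is inside the gene. The interval from 1 to 100 bp held 113 members (24.2%, 20.5 to 28.3%), against 612 of 2550 lower-signal candidates (24%, 22.4 to 25.7%). The interval from 101 to 200 bp held the most members, 135 of 467 (28.9%, 95% Wilson interval 25 to 33.2%), against 526 of 2550 lower-signal candidates (20.6%, 19.1 to 22.2%). The interval from 401 to 500 bp held 49 members (10.5%, 8.03 to 13.6%), against 425 lower-signal candidates (16.7%, 15.3 to 18.2%). Members were thus more frequent at 101 to 200 bp and less frequent at 401 to 500 bp, where the intervals were apart, and not next to the start, where they overlapped. These intervals, as all others here, count regions and cover counting error only.

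**Figure D1:**
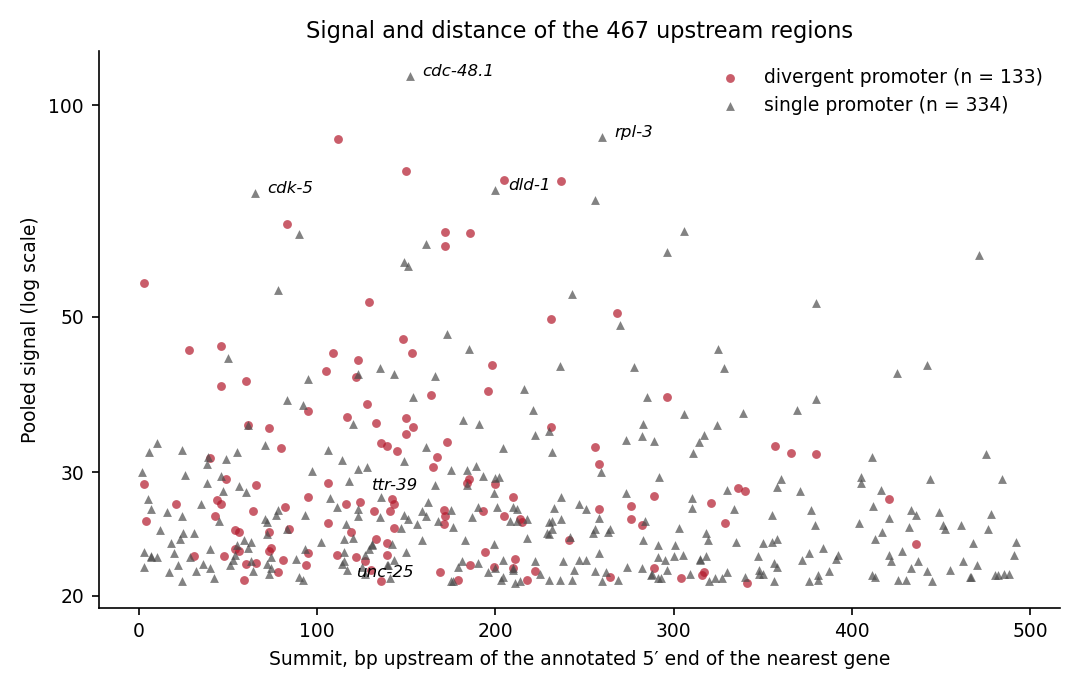
Pooled signal (log scale) against the distance of the summit from the annotated 5′ end, in bp, for the 467 members, with divergent promoters as circles and single promoters as triangles. Signals over 60 lie at many distances, among them cdk-5 at 65 bp, rpl-3 at 260 bp and rpl-35 at 471 bp, while most members lie under a signal of 30.8, the upper quartile.

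Of the 467 summits, 419 (89.7%) lay between annotated genes. The others lay in an intron or other part of a protein-coding gene (16), in a 3′ untranslated region of a neighbour (12), in a non-coding gene (11), in a coding exon of another gene (8) or in a 5′ untranslated region (1). Chromosome III held 105 members (22.5%, 18.9 to 26.5%) and 15.3% of autosomal protein-coding genes. Chromosome V, rich in chemoreceptor families, held 84 members (18%, 14.8 to 21.7%), 27.8% of lower-signal candidates and 29% of those genes. Of the 462 nearest genes, 113 (24.5%, 20.8 to 28.6%) had TTTCAG, the worm splice acceptor consensus, directly before the annotated 5′ end. The share over all 17242 autosomal protein-coding genes was 12.3% (11.8 to 12.8%). For these genes the bp upstream is therefore measured from a sequence that looks like an acceptor, and the distance to the start of transcription is not known here.

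Genes of basic cell functions were among the members with the highest signal. The region at cdc-48.1 (WBGene00007352), an ATPase that unfolds ubiquitin-marked proteins for the proteasome, had the highest signal of the members, 110, at chrII:10563381-10563736, 152 bp upstream. In the replicates' own lists it had a signal of 72.4 in replicate 1 (place 1) and 38.5 in replicate 2 (place 19). The replicates' lists were made separately, so their signals are set side by side only as places within each list.

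The region at rpl-3 (WBGene00004414), a protein of the large ribosomal subunit, had a signal of 90, 260 bp upstream, with place 7 in replicate 1 and place 29 in replicate 2. The region at rps-1 (WBGene00004470), of the small subunit, had a signal of 78 and shared its promoter with ifet-1, a translational repressor. Its places were 26 in replicate 1 and 31 in replicate 2. The dld-1 region, at the gene for the lipoamide dehydrogenase of the pyruvate dehydrogenase complex, had a signal of 75.8 and was stronger by place in replicate 2 (17) than in replicate 1 (48). All 4 regions thus stood among the top 50 of both libraries.

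Other members of the top 10 were the divergent promoters of Y87G2A.18 and Y87G2A.1 (signal 89.4), of Y17G9B.5 and rpl-20 (80.7), of Y22D7AL.10 and hsp-60, the mitochondrial chaperonin (78.3), and of fbxb-85 and hex-3 (67.7). The remaining single promoters were those of cdk-5, a cyclin-dependent kinase that acts in neurons (75), and eelo-2 (73.2). The eelo-2 region was uneven between libraries, with place 8 in replicate 1 and place 176 in replicate 2. The summed places in both replicates were lowest for cdc-48.1, Y87G2A.18, rpl-3, rps-1 and cdk-5.

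Of all 17242 autosomal protein-coding genes, 2.68% were the nearest gene of a member, and 3.44% were the nearest or the other gene of a divergent pair. Against this background 9 of 38 translation factors (23.7%, 13 to 39.2%) were the nearest gene, with eif-3.C, a subunit of initiation factor eIF3, the highest at a signal of 42.5. Next in this list were eif-2Bdelta (33.2) and iff-2 (32.5). Cytosolic ribosomal protein genes gave 13 of 80 (16.2%, 9.75 to 25.8%), and 21 of 80 when both genes of divergent promoters were counted. Proteasome and CDC-48 genes gave 6 of 41 (14.6%, 6.88 to 28.4%), among them rpn-11, the deubiquitinase of the proteasome lid (41.4), and rpn-3 (38.7). RNA polymerase II and general transcription genes gave 7 of 52 (13.5%, 6.68 to 25.3%), led by the polymerase subunit rpb-11 (54.6), while mdt-11, a Mediator subunit, had 2 member regions (22.4 and 22). The intervals of these 4 lists lay above 2.68%.

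Mitochondrial genes were spread over several lists. The citric acid cycle and pyruvate dehydrogenase list gave 3 of 14 (21.4%, 7.57 to 47.6%), namely dld-1, sucg-1 (22) and idha-1 (21.1). Mitochondrial protein import gave 3 of 15 (20%, 7.05 to 45.2%), namely tomm-20 (36.3), tin-13 (26.3) and tin-9.1 (22.5). Respiratory chain and ATP synthase genes gave 3 of 54 (5.56%, 1.91 to 15.1%) and mitochondrial ribosomal proteins 4 of 70 (5.71%, 2.24 to 13.8%), with cox-5A, a cytochrome oxidase subunit (66.1), atp-1 (55.8) and mrpl-28 (63.4) the highest. Chaperones gave 5 of 62 (8.06%, 3.49 to 17.5%) as nearest genes and 9 of 62 with the other genes of divergent pairs. Among those others, cct-1 (with mig-5, 65.7) and cct-8 (with Y55F3AR.2, 63) encode subunits of the cytosolic chaperonin. The intervals for the respiratory chain and the mitochondrial ribosome include the background. The lists match symbols and are not complete. The members at ndus-8 (30.1) and nduf-9 (31.5), of the respiratory chain, and at ddp-1 (47.2), of mitochondrial import, were not counted in them. The overlap with the background thus holds for the listed genes only.

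Nuclear pore and import gave 4 of 40, led by npp-2 at 29.3, and ubiquitin conjugation 4 of 48, led by ubc-7 at 36.8. Splicing gave 3 of 57, led by lsm-6 at 37.4, and tRNA synthetases 2 of 32 (cars-1 at 24.9 and wars-1 at 21.4). The list named for Rab, Arf and vacuolar ATPase genes also matched vps genes. It gave 5 of 71, namely vps-37 (39.4), vps-4, vps-26, vps-28 and rab-1. Cell cycle and DNA replication gave 4 of 52, namely cdc-48.1, cdk-5, pcn-1, the replication clamp (24.7), and cdk-9. Of these, cdc-48.1 was also on the proteasome list and cdk-9 on the transcription list. Through this list cdk-5 counts among the basic cell functions below. Together, 15 lists of basic cell functions held the nearest gene of 75 members (16.1%, 13 to 19.7%). They held it for 123 of 2550 lower-signal candidates (4.82%, 4.06 to 5.73%), and 721 of 17242 genes (4.18%) were on them. The nearest gene of the other 392 members was on none of these lists. With the other genes of divergent pairs counted, 98 members (21%, 17.5 to 24.9%) lay at a listed gene.

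The lists of neuronal genes were short, and their counts small. Of 14 genes of GABA identity and the D-type motor neurons, 3 were the nearest gene of a member (21.4%, 7.57 to 47.6%): cdk-5 (75), ttr-39, a transthyretin-like gene (27.2), and unc-25 (23.1). Both cdk-5 and ttr-39 were known from earlier results of these data when the list was written, so their count supports nothing. The unc-25 region (WBGene00006762, chrIII:12942358-12942713) stood at place 1707 of the pooled list, 115 bp upstream. It had a signal of 18.9 at place 468 of replicate 1's list, and replicate 2's list held no summit within 100 bp of it. The ttr-39 region (WBGene00007304) had places 330 in replicate 1 and 29061 in replicate 2, which is near the end of that list. Of these 3, cdk-5 alone ranked high in both libraries, at place 33 in replicate 1 and 25 in replicate 2.

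Pan-neuronal genes gave 2 of 23, egl-21, a carboxypeptidase that matures neuropeptides (25), and ric-4, a SNAP-25 homologue (23.6). Neuropeptide genes gave 1 of 106 (nlp-78, 21.2), cholinergic motor neuron genes 0 of 11, which the interval allows up to 25.9%, and homeobox genes 0 of 66, which it allows up to 5.5%. Members at large gene families were rare: chemoreceptors gave 12 of 1260 (0.952%, 0.546 to 1.66%), C-type lectins and F-box genes 2 of 542 (0.369%, 0.101 to 1.34%), nuclear hormone receptors 2 of 246 (nhr-88 at 32.1 and nhr-154 at 24.9), cuticle collagens 1 of 143 (col-114 at 27.8) and major sperm proteins 0 of 74. The highest chemoreceptor member, sri-5 (50.5), stood at a divergent promoter with the splicing gene rsr-1. Body wall muscle gave 1 of 26 (pat-2 at 21.9) and histones 1 of 68 (his-37 at 22.1). Chemoreceptors, and lectins with F-box genes, had intervals below the background.

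**Figure D2:**
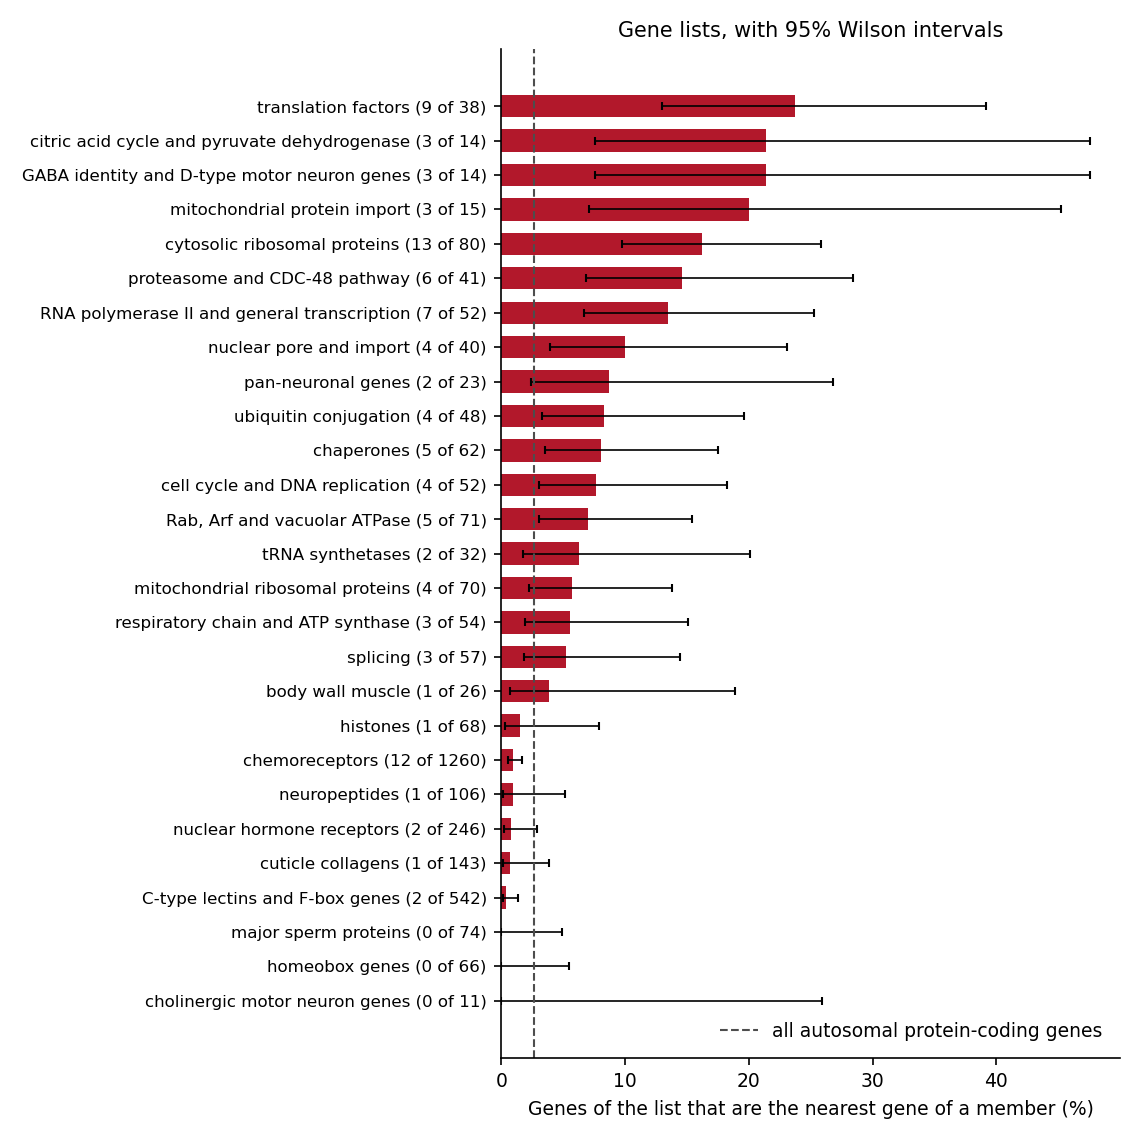
Share of each gene list's autosomal genes (in %) that were the nearest gene of a member, with 95% Wilson intervals over genes, counts beside the names, and the 2.68% of all autosomal protein-coding genes as a dashed line. Translation factors lead at 23.7%, and chemoreceptors stand at 0.952%.

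Divergent promoters were common among the members. A promoter was called divergent when another protein-coding gene started on the other strand, facing away, at most 1000 bp from the nearest gene's start, with the summit between both starts. This held for 133 of 467 members (28.5%, 24.6 to 32.7%), for 339 of 2550 lower-signal candidates (13.3%, 12 to 14.7%), and, without regard to any summit, for 3378 of 17242 autosomal genes (19.6%, 19 to 20.2%). The share of genes can count both genes of a pair, while a region counts once at its nearest gene, so the units differ. The starts lay a median of 496 bp apart, with a range from 128 to 969 bp. In 105 of the 133 the summit was within 500 bp of both starts.

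Several divergent pairs joined a gene of a basic function to a gene of another kind. The pair with the highest signal was Y87G2A.18 and Y87G2A.1, whose starts lay 260 bp apart. In Y17G9B.5 and rpl-20 (462 bp apart) the ribosomal protein gene was the farther, 312 bp from the summit. The same was so for hsp-60 (608 bp from the summit, against 205 bp for Y22D7AL.10), rps-20 (225 bp, against 172 bp for ekl-4) and cct-1 (234 bp, against 186 bp for mig-5). Counting the nearest gene alone leaves such genes out, which is why 21 ribosomal protein genes appear with both genes and 13 without. In 4 of the 133 pairs both genes were on the 15 lists.

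The comparison with lower-signal candidates was repeated on and off these lists. Members whose nearest gene was on them were divergent in 24 of 75 cases (32%, 22.5 to 43.2%), and lower-signal candidates of such genes in 39 of 123 (31.7%, 24.1 to 40.4%). Members whose nearest gene was off the lists were divergent in 109 of 392 cases (27.8%, 23.6 to 32.4%), and such lower-signal candidates in 300 of 2427 (12.4%, 11.1 to 13.7%). Since the nearest gene alone set this split, the 109 include pairs whose other gene was listed, such as rpl-20 and hsp-60. A listed gene was the nearest for 75 members, and the nearest or the other gene of a pair for 98. The split thus does not part members with a listed gene from members without one. The intervals were apart only off the lists, and the difference between these differences was not tested. Of the genes themselves, 43.6% on the lists and 18.5% off them were divergent.

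The share also changed along the order by signal: 42 of the 100 members with the highest signal were divergent, then 32 and 25 of the next sets of 100, and 34 of the lowest 167. Signal chose the members, so this order and the signals given next are a description. Divergent members had a median signal of 27 (quartiles 23.4 and 34.8), against 24.9 (22.4 and 29.5) for the 334 single ones. Their summits lay a median of 143 bp upstream of the nearest gene, against 217 bp for single ones, which the choice of the nearer of 2 starts favours. GC content of the windows had a median of 36.3% at divergent and 34.3% at single promoters. The ranges of signal and GC overlapped widely between both kinds.

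Replicate support was partial. A region in both replicates' own candidate lists, with summits within 100 bp, was found for 265 of 467 members (56.7%, 52.2 to 61.2%), against 269 of 2550 lower-signal candidates (10.5%) and 1079 of the 2033 other autosomal regions of the 3000 (53.1%, 50.9 to 55.2%). Over all 30000 pooled candidates the share was 14.4%. Since the pooled list was made from the same libraries and the members were selected on its signal, nothing is read from a share above that level. Against the other autosomal regions, chosen by the same signal, the intervals overlapped. When the rule was run on 1 library's list alone, 33.9% of the regions found without replicate 1 and 32.4% of those found without replicate 2 were in both lists. A further 127 members had a region in replicate 1's list alone, 66 in replicate 2's alone and 9 in neither.

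A stricter view of the same lists separated the libraries. Of the members, 264 (56.5%, 52 to 61%) were among the 3000 highest of replicate 1 and 173 (37%, 32.8 to 41.5%) among the 3000 highest of replicate 2. For the other autosomal regions the shares were 32.1% in replicate 1 and 32.7% in replicate 2. More members thus stood high in replicate 1 than in replicate 2, and the other autosomal regions were even between them. Only 72 members (15.4%, 12.4 to 19%) were among the 3000 highest of both, against 89 of the other autosomal regions (4.38%, 3.57 to 5.36%), and 102 members were among the highest of neither. The members also had a higher pooled signal than the other autosomal regions. The medians were 25.6 and 23.4, and the upper quartiles 30.8 and 26. The part of the pooled signal in these shares was not tested, so they are a description. Among the 265 in both lists the place in replicate 1 was the better one for 167. Their signals had a Pearson correlation of 0.24 on the log2 scale and a Spearman correlation of 0.08 over these 265 regions, which share library and selection, so it is a description with no test.

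The pooled signal was made from the same libraries, so the order of support along it is a description. Both lists held a region for 79 of the 100 members with the highest signal, for 60 and 55 of the next sets of 100, and for 71 of the lowest 167. Of the divergent members 89 of 133 (66.9%, 58.5 to 74.3%) were in both lists, against 176 of 334 single ones (52.7%, 47.3 to 58%). Among the 3000 highest of both libraries were 33 divergent members (24.8%, 18.2 to 32.8%) and 39 single ones (11.7%, 8.66 to 15.6%). The higher signal of divergent members goes along with this, and its part in it was not tested.

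The authors also deposited a list cut by IDR (irreproducible discovery rate, a measure of agreement between replicates), which held 55 members (11.8%, 9.16 to 15%). It held 0.417% of all 30000 candidates, none of the lower-signal candidates, and 48 of the 2033 other autosomal regions of the 3000 (2.36%, 1.79 to 3.12%). Every member down to place 124 of the pooled list (C37A2.8) was in the IDR list, and those from place 128 (rpn-3) on were not. The shares in the IDR list thus follow the pooled signal that chose the members, so they too are a description. Of the 55, 24 were at divergent promoters (18% of the 133) and 31 at single ones (9.28% of the 334). The list includes members that 1 replicate's own list lacks: ubxn-2 had place 55 in replicate 1 and dnj-9 place 60, with no summit within 100 bp in replicate 2, and rpn-11 had place 179 in replicate 2 with none in replicate 1.

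**Figure D3:**
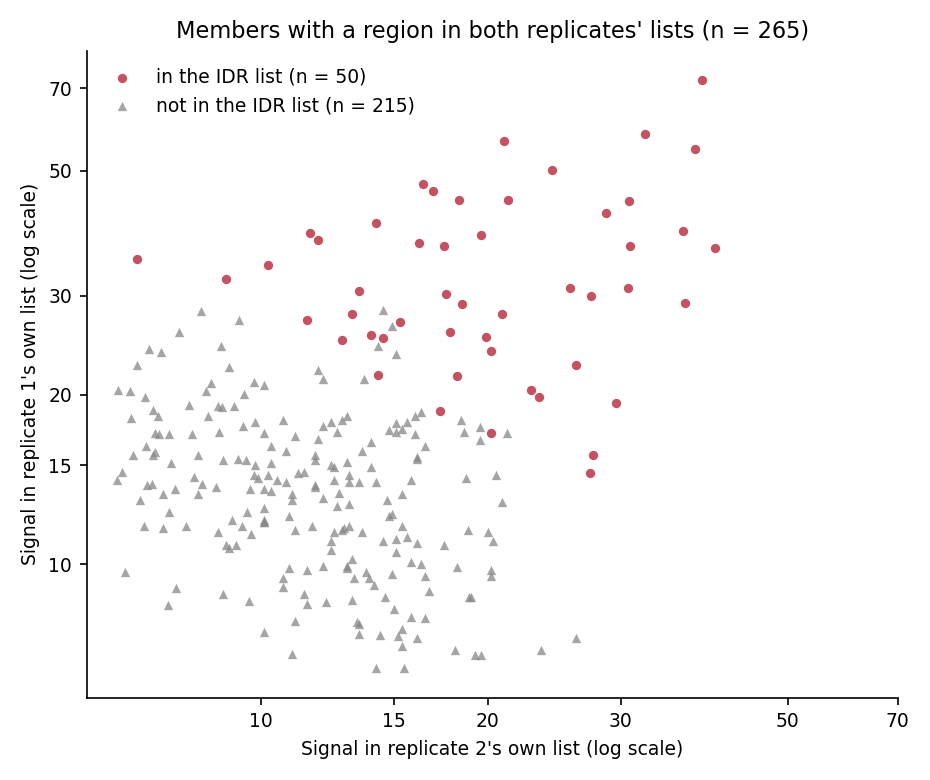
Signal in replicate 1's own list (y) against signal in replicate 2's own list (x), both on log scales, for the 265 members with a region in both, with circles for the members in the IDR list and triangles for the others. The 50 circles lie high in at least 1 replicate, some of them low in replicate 2 (hrpu-2 at 6.85, with 34.9 in replicate 1), with cdc-48.1 highest at 72.4 in replicate 1 and 38.5 in replicate 2, and the triangles form a cloud with little slope.

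Of the nearest genes, 5 had 2 members each. At icd-2, a subunit of the nascent polypeptide-associated complex, the region 380 bp upstream had place 63 in replicate 1 and no match in replicate 2, while the region 176 bp upstream had place 79 in replicate 2 and no match in replicate 1. At mekk-3 the region at 413 bp had place 74 in replicate 2 alone, and the region at 204 bp had a match in neither list. At gcn-1, which acts in the response to amino acid shortage, the region at 273 bp had place 128 in replicate 1 alone, and the region at 31 bp had place 6488 in replicate 1 and 1432 in replicate 2. At vps-4, an ATPase of membrane sorting, the region at 39 bp had place 198 in replicate 1 alone, and the region at 242 bp had place 4149 in replicate 1 and 1539 in replicate 2. At mdt-11 the region at 422 bp had place 2403 in replicate 2 alone, and the region at 179 bp had place 2549 in replicate 1 and 14833 in replicate 2. At icd-2 alone among these genes was each region matched in a different library.

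The 3 8-mers were chosen after all 6-mers had been counted in these windows, so their excess in the members is partly a product of that choice and carries no test. At least 1 of them lay within 100 bp of the summit in 52 of 467 members (11.1%, 8.59 to 14.3%). The shares were 21 of 2550 in lower-signal candidates (0.824%, 0.539 to 1.26%), 10 of 2033 in the other autosomal regions of the 3000 (0.492%, 0.267 to 0.903%), 6 of 918 in windows centred 1000 bp to each side of members (0.654%, 0.3 to 1.42%), and 169 of 17242 in windows upstream of all autosomal genes (0.98%, 0.844 to 1.14%). GCGCCAGC was in 34 members, GCGTCAGC in 21 and GCGCAAGC in 16. All were searched on both strands.

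The 3 forms were chosen for their frequency in the members. Of the 16 forms of GCGNNAGC, the 3 named ones were in 34, 21 and 16 members and each of the other 13 in at most 2. The same forms were the commonest upstream of genes at large, with GCGCCAGC in 83 windows, GCGTCAGC in 65 and GCGCAAGC in 47, but other forms came close there, with GCGAGAGC in 45 and GCGGCAGC in 36. In lower-signal candidates GCGCCAGC was in 12 windows, GCGCAAGC in 8 and GCGTCAGC in 3, beside 5 each of GCGAAAGC, GCGAGAGC, GCGGCAGC and GCGTGAGC. Any form of GCGNNAGC was in 57 members (12.2%, 9.54 to 15.5%), 59 lower-signal candidates (2.31%, 1.8 to 2.97%), 36 other autosomal regions (1.77%, 1.28 to 2.44%), 31 flanking windows (3.38%, 2.39 to 4.75%) and 457 upstream windows of all genes (2.65%, 2.42 to 2.9%).

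The bases around the 8-mer were also shared, as the lined-up sites show. The positions described were picked as the most shared ones over these same sites, and overlapping 6-mers had covered some of them, so their excess in members is favoured by that choice and carries no test. Over the 76 sites in members, the eighth base before the 8-mer was C in 65 (85.5%, 75.9 to 91.7%), the base directly before it was T or C in 70 (92.1%, 83.8 to 96.3%) and the base directly after it was A in 56 (73.7%, 62.8 to 82.3%). All 3 neighbours were present in 46 of the 76 (60.5%, 49.3 to 70.8%). Among 238 sites upstream of genes but not in members they were present in 64 (26.9%, 21.7 to 32.9%), and among 1785 sites elsewhere on the autosomes in 124 (6.95%, 5.86 to 8.22%). The stretch between the C and the 8-mer was rich in A, with A as the fourth base before in 72.4% and as the third before in 71.1% of sites in members. Of the 110 sites with all 3 neighbours in members or upstream of a gene, 46 (41.8%, 33 to 51.2%) were in members.

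Sites lay close to the summit and often in pairs. Of the 76 sites, 59 (77.6%) were within 50 bp of the summit, with a median distance of 22 bp. These sites were searched only within 100 bp of the summit, which limits both the distances and the spacing of pairs. In a wider search, the bins from 100 to 150 bp before and after the summit held 1 and 7 sites. In the direction of the gene they were even about the summit, with 30 sites in the 50 bp before it and 29 in the 50 bp after it, and 31 of 76 (40.8%) were on the strand of the nearest gene. A pair of sites was found in 24 of the 52 members, and pairs were not counted in the other sets. The starts of both 8-mers were a median of 20 bp apart, from 14 to 35 bp, and 15 of the 24 pairs were on the same strand. Over a range picked after the spacings were seen, 12 of 24 pairs were 17 to 22 bp apart. Of those 12, 11 had both 8-mers on the same strand, as at ubxn-2 (21 bp), ddp-1 (20 bp), dnsn-1 (21 bp), smr-1 (21 bp), F57A10.2 (20 bp) and hpr-17 (18 bp).

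**Figure D4:**
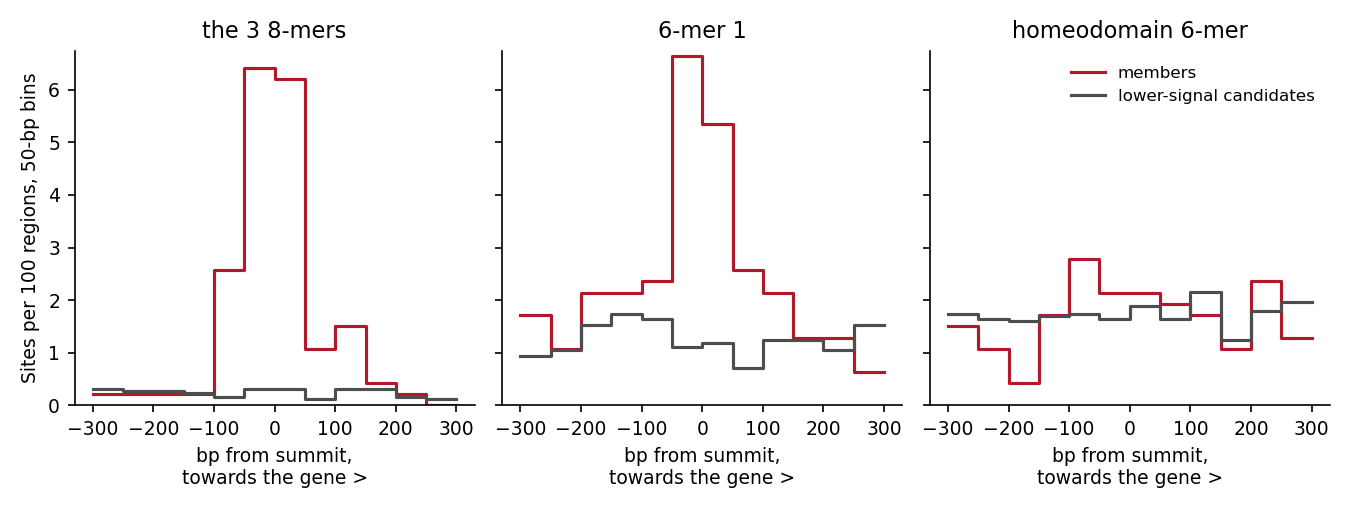
Sites per 100 regions in 50-bp bins from 300 bp before to 300 bp after the summit, in the direction of the nearest gene, for members and for lower-signal candidates. The panels hold the 3 8-mers, GACGCA (6-mer 1) and TAATCC (homeodomain 6-mer). The 8-mers reach 6.42 and 6.21 per 100 members in the 2 bins beside the summit and at most 0.314 per 100 lower-signal candidates in the same bins, GACGCA reaches 6.64 and 5.35, and TAATCC stands at 2.14 in both.

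By signal, which also entered the choice of both the members and the 8-mers, the members with an 8-mer were 26 of the 100 members with the highest signal, then 15 and 6 of the next sets of 100, and 5 of the lowest 167. This order is therefore a description. Divergent and single promoters held them alike in share, 15 of 133 (11.3%, 6.95 to 17.8%) and 37 of 334 (11.1%, 8.14 to 14.9%). Of the 21 members at ribosomal protein genes only 1 held an 8-mer (rpl-24.2), which is 4.76% (0.846 to 22.7%). Each chromosome held between 9 and 12 of them. Their nearest genes included ubxn-2, a cofactor of CDC-48, ddp-1 and tomm-20 of mitochondrial import, spas-1, the spastin homologue, hpr-17, a checkpoint clamp loader, and pcn-1, the replication clamp.

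The 8-mers recurred when the same rule was run on each library's own list. Of 516 regions from replicate 1, 45 held 1 of them (8.72%, 6.58 to 11.5%), and of 380 regions from replicate 2, 28 did (7.37%, 5.15 to 10.4%). These lists are not independent of the members, since 50.8% of replicate 1's regions and 43.9% of replicate 2's had a summit within 100 bp of a member. Most copies of the 8-mers had no candidate region: of 2099 sites on the autosomes 169 (8.05%) were within 100 bp of any pooled summit. Of the 310 sites 1 to 500 bp upstream of a gene, 72 (23.2%, 18.9 to 28.2%) were at a member and 22 (7.1%, 4.73 to 10.5%) at a lower-signal candidate alone. The 8-mers were picked in the members' own windows, so the share at members is favoured by that choice.

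The 6-mers known from earlier results of these data were more frequent in members as well. Their excess is favoured by that choice, carries no test and adds no support to the 8-mers. GACGCA was in 67 members (14.3%, 11.5 to 17.8%), 115 lower-signal candidates (4.51%, 3.77 to 5.39%), 79 of the other autosomal regions (3.89%, 3.13 to 4.82%), 38 flanking windows (4.14%, 3.03 to 5.63%) and 1069 upstream windows of all genes (6.2%, 5.85 to 6.57%). CGCGCA was in 13.1% of members and 3.69% of lower-signal candidates, ATGCGC in 11.8% and 3.65%, and ACGCAG in 10.5% and 4.43%, against 4.61%, 4.3% and 5.92% of all gene windows. These words overlap each other and the 8-mers in sequence, as GACGCA and ACGCAG share 5 bases. They therefore count in part the same sites, and 21 of the 67 members with GACGCA held an 8-mer. The 5 highest members with GACGCA were rpl-3, Y87G2A.18, rps-1, cdk-5 and eelo-2. GACGCA was in 29 of the 100 members with the highest signal and in 10 of the lowest 167, an order that is a description.

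Ordered by the difference in share between members and lower-signal candidates, GACGCA stood at place 11, CGCGCA at 14, ATGCGC at 24 and ACGCAG at 46 of the 2080 different 6-mers (counted on both strands together). The word at the top was CGAAAA, in 49.9% of members and 36.5% of lower-signal candidates, followed by GCGCCA (15.2% and 3.41%), which is a part of GCGCCAGC. At the other end was AATTAT (29.6% of members and 38.9% of lower-signal candidates). Base composition also differed between the sets. The median GC content of the windows was 34.8% in members, 31.8% in lower-signal candidates and 32.3% in the other autosomal regions. It was 36.8% in flanking windows and 33.3% upstream of all genes. The flanking windows held GACGCA in 4.14% and the 8-mers in 0.654%. No set was matched to the members in base composition, and its part in these counts was not tested.

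TAATCC, the core of the homeodomain type to which UNC-30 belongs, was in 37 members (7.92%, 5.8 to 10.7%). It was in 166 lower-signal candidates (6.51%, 5.62 to 7.53%), 201 of the other autosomal regions (9.89%, 8.66 to 11.3%), 61 flanking windows (6.64%, 5.21 to 8.44%) and 1109 upstream windows of all genes (6.43%, 6.08 to 6.81%). The members' interval overlapped all of these, and the core stood at place 464 of the 2080 6-mers. The shorter TAATC was in 28.1% of members and 32.4% of lower-signal candidates. Of the 100 members with the highest signal, 3 held TAATCC (3%, 1.03 to 8.45%), against 12, 8 and 14 in the following sets of 100, 100 and 167. The interval of the first set includes the 6.43% of all gene windows. Signal chose the members, so this order is a description. None of the 37 held an 8-mer, which allows a share of up to 9.41%.

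The highest members with TAATCC were lsm-6 (37.4), the divergent pair ZK643.5 and ZK643.2 (35.3), eif-2Bdelta (33.2), ubc-6 with aka-1 (31.5) and rpl-12 with lin-54 (31.4). None of these 5 was in the IDR list. The divergent pair ZK643.5 and ZK643.2 had place 772 in replicate 1 and 375 in replicate 2. In others the places were further apart: rpl-12 had place 169 in replicate 1 and 14204 in replicate 2, and lsm-6 had place 5768 in replicate 1 and 238 in replicate 2. Of the D-type genes shown above, unc-25 and ttr-39 held the core 2 times each and cdk-5 did not hold it. By replicate support, TAATCC was in 24 of the 265 members in both lists (9.06%, 6.16 to 13.1%) and in 13 of the other 202 (6.44%, 3.8 to 10.7%).

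**Figure D5:**
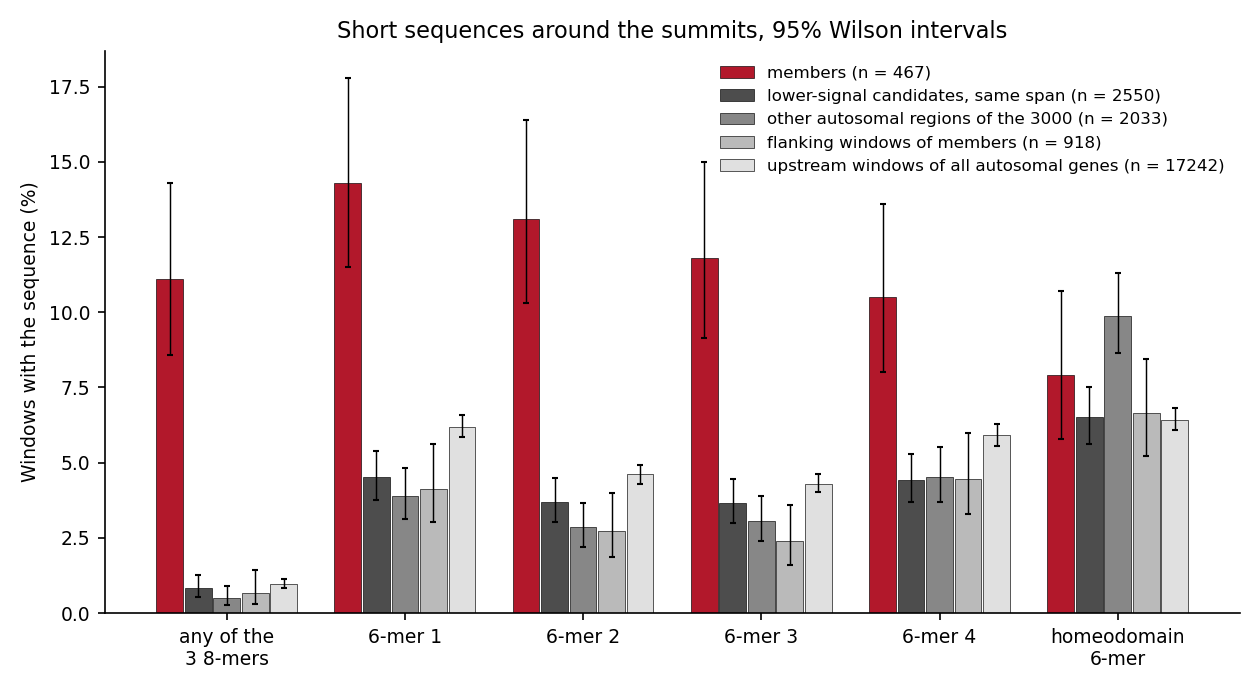
Share of 201-bp windows (in %) that hold any of the 3 8-mers, GACGCA (6-mer 1), CGCGCA (6-mer 2), ATGCGC (6-mer 3), ACGCAG (6-mer 4) or TAATCC (homeodomain 6-mer), with 95% Wilson intervals over windows, for members (left bar) and 4 reference sets. The members' bars stand apart from all references for every word except TAATCC, where 7.92% lies between the 6.43% of all gene windows and the 9.89% of the other autosomal regions.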

How the data were processed

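ChIP-seq of UNC-30 in 2 libraries of 1 group was analysed from the deposited ce11 lists: 1 per replicate, 1 from both replicates and 1 thresholded by IDR. Per the deposited format, each region holds the authors' signal (its scale is not given), a −log10 q-value and the bp offset of its summit. Not given in the sources used here are the aligner, peak caller, control and cut-off of IDR. The depth of the libraries is unknown. The ce10 lists were not used here.

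Summits were assigned to the protein-coding gene with the nearest annotated 5′ end (Ensembl release 115), and words were searched on both strands of the RefSeq WBcel235 sequence, 100 bp to each side. Intervals are 95% Wilson intervals. No test was made, because there is 1 group and the signal chose the members. Members, words and 27 gene lists were chosen with earlier results of these data known; the 3 8-mers were chosen in these windows. Gene lists match symbols. A few items are not reported here.

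Named genes were the 10 highest-signal members, the 5 highest at divergent and at single promoters, up to 4 of each list, the 5 highest with TAATCC and with GACGCA, the 5 with the lowest summed places, those at the thresholds, and unc-25. Other names (8-mer examples, genes with 2 members, members in 1 library's list, genes that a list took in or left out) were chosen after their values were seen. Scripts used Python 3.11.15, numpy 2.4.6 and pandas and were tested on simulated data. Alternatives were each library alone, 1000 regions, a span of 250 bp, other distances between starts or summits, and other window widths.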

Additional observations from a re-analysis of the deposited data

How the results depend on the processing

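Of 39 alternative values, 16 stayed within 1.5 times the count or within the interval of the value given above, and 23 moved. None of these is a test. No paired analysis was possible because there is 1 group. With 1 library's own list in place of the pooled one, the count ranged from 380 to 516, divergent promoters from 23.7% to 29.3%, the IDR list from 10.3% to 10.8%, both replicates' lists from 32.4% to 33.9%, TAATCC from 5.53% to 5.81%, GACGCA from 11.8% to 13.4% and the 8-mers from 7.37% to 8.72%. Either library alone lowered the share in both lists by over 1.5 times (33.9% without replicate 1, 32.4% without replicate 2), and leaving out replicate 1 did so for the 8-mers (7.37%). With the 1000 highest-signal regions there were 242 members, of which 36% were divergent, 22.7% in the IDR list, 68.6% in both lists, 21.1% with GACGCA and 17.4% with an 8-mer. A span of 250 bp gave 302 members, 36.1% divergent and 62.3% in both lists. Starts at most 500 bp apart made 14.3% divergent, and 2000 bp made it 39.2%. Summits within 50 bp put 35.3% in both lists, and within 200 bp 74.3%. Words searched 50 bp to each side gave 3.85% for TAATCC, 10.7% for GACGCA and 8.57% for the 8-mers, and 200 bp gave 12.4% for TAATCC and 20.6% for GACGCA. The 8-mer alternatives were added after seeing the data. Beyond the wider or narrower window and span themselves, the cause was not tested. Depth is unknown, so no limit from it can be given.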
